A study of Mus musculus with 8 samples.

Results

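Cholesterol and long-chain fatty acids are built from acetyl-CoA by 2 sets of enzymes whose genes are controlled by the sterol regulatory element-binding proteins (SREBPs). Described here are 32 such genes, out of 55418 genes in the deposited tables. They were taken by name from a list of the pathway, with earlier results of these data known, so their shares are descriptions and not independent support. They fall into 18 enzymes of the mevalonate and sterol pathway, 6 genes of sterol sensing and transport, and 8 genes of the fatty acid arm. Each of the 32 had reads in every library, from 187 counts in the library with the fewest reads on Tm7sf2 to 19969 in the library with the most on Fasn, and all 32 passed the filter on low counts in every comparison.

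SREBPs are made as membrane proteins of the endoplasmic reticulum, where SCAP binds them. When membrane sterol is low, SCAP escorts the SREBP to the Golgi, where proteases free a transcription factor that enters the nucleus and acts with NF-Y and Sp1 at its target promoters. When sterol is plentiful, SCAP is held back by the INSIG proteins, and INSIG1 is itself a target. SREBP2, from Srebf2, is best known for the sterol genes and SREBP1, from Srebf1, for the fatty acid genes, and cells grown in serum can also take up lipoprotein cholesterol.

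The genes were measured by RNA-seq in mouse E14 embryonic stem cells (ESCs), a cell line whose strain is labelled 12910la, in 8 libraries that comprise 2 from control cells and 2 each from cells depleted of Hira, Ubn1 or Ubn2. HIRA is a histone chaperone that deposits the histone variant H3.3, UBN1 and UBN2 are alternative subunits of its complex, and the experiment asked how the transcriptome responds when each subunit is reduced. All groups were grown on gelatin in medium with 15% serum and 10 ng/ml LIF, a cytokine that maintains ESCs. Per the labels, 1000 ng of a pSuper puro plasmid was transfected, the depleted cells receiving an shRNA against Hira, Ubn1 or Ubn2, and 1 µg/ml puromycin was given from 24 h for 3 days. The control libraries are labelled wild type, while the methods of the study name an shRNA against luciferase as its control. Each knockdown is therefore transient and partial, in a mixed population of transfected cells of 1 line, and not a mutant clone. Whether the libraries of a group came from separate cultures is not stated, so p-values measure the spread between these libraries, which may be technical.

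Total counts on genes ranged from 19710040 to 32706053 per library with a median of 21848236. The targeted transcripts were lower in the cells labelled for them, by a log2 fold change of -3.22 for Hira, -1.03 for Ubn1 and -0.90 for Ubn2. Transcripts of the other subunits moved as well. After Hira depletion Ubn1 stood at 139% and Ubn2 at 119% of control, neither called. Hira lay above both controls after Ubn1 and after Ubn2 depletion. After Ubn2 depletion Ubn1 lay below both controls, and after Ubn1 depletion Ubn2 overlapped them. Of 10 ESC markers none was at 0 in any group, and their summed level was 7100 to 7390 CPM (counts per 1000000 counts on genes) in control, 6319 to 6470 after Hira, 6429 to 6526 after Ubn1 and 6122 to 6258 after Ubn2 depletion. Markers of other cells moved too. Summed over 10 markers of mesoderm and muscle, the level was 13.9 to 14.9 CPM in control and 107 to 178 CPM after Ubn2 depletion, with Csrp3 and Col3a1 at 0 in both controls. Summed over 10 neural markers, it was 446 to 453 CPM in control, 648 to 656 after Hira and 343 to 352 after Ubn2 depletion, with Dcx at 0 in both libraries of every group. Of the 9 neural markers tested, 5 were called after Hira depletion, all higher, where 10.8% of all genes were called higher and 5.4% lower. After Ubn2 depletion 2 were called higher and 3 lower, beside 9.59% and 8.75% of all genes. Among the 3 lower was Stmn2, the marker with the highest level, at a mean of 287 CPM in control and 183 CPM after Ubn2 depletion. Summed over 10 markers of the two-cell-like state, the level was 3.93 to 7.16 CPM in control, 19.0 to 26.4 after Hira, 15.1 to 15.2 after Ubn1 and 24.9 to 35.8 after Ubn2 depletion. After Hira depletion the sums of 10 markers each were 327 to 335 CPM for primitive endoderm, against 276 to 279 in control, and 169 to 189 CPM for trophoblast, against 128 to 131 in control. After Ubn2 depletion these sums were 309.8 to 322 and 118 to 125 CPM, and after Ubn1 depletion 281 to 294 and 124 to 128 CPM. After Hira depletion 1 of 9 primitive endoderm markers tested was called, Sox17, higher, at means of 0.66 CPM in control and 1.52 CPM after depletion. By sign 5 of the 9 were higher and 4 lower, beside 51.1% of all genes higher. Sparc, the marker with the highest level, was not called after Hira depletion, at means of 142 CPM in control and 179 CPM after it. Of 8 trophoblast markers 4 were called higher and 1, Ascl2, lower. After Ubn2 depletion 0 of 9 primitive endoderm markers were called, and of 8 trophoblast markers 1 higher and 3 lower. For Hira and Ubn2 depletion the shares of all genes are those above. After Ubn1 depletion 2 of 9 and 1 of 6 were called, all lower, where 1.56% of all genes were called lower and 1.53% higher. Whether other cells were present, or ESCs changed these transcripts, was not tested, nor was any part of this in the results on lipid genes.

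Promoter sequences are shown for 5 genes on which the results turn, because SREBPs act there together with NF-Y and Sp1. Of the 32 genes, 25 matched a RefSeq promoter window of GRCm38.p6, which spans 250 bases before to 50 bases after the transcription start. Capitals mark the core of the sterol regulatory element, TCACNCCAC, and the NF-Y box, CCAAT, found on either strand, so that a box on the other strand reads ATTGG. Hmgcs1 lies at chr13:119690101-119690400 on the plus strand, Msmo1 at chr8:64733529-64733828 on the minus strand, Cyp51 at chr5:4104648-4104947 on the minus strand, Insig1 at chr5:28071162-28071461 on the plus strand and Acly at chr11:100527951-100528250 on the minus strand, each written 5′ to 3′ along its gene.
Hmgcs1: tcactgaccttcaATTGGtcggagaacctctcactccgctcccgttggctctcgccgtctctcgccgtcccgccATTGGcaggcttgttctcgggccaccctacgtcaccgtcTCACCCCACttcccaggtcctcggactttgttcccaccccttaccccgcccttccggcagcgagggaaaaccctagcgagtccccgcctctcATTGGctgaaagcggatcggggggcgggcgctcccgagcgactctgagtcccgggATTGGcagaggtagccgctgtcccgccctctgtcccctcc
Msmo1: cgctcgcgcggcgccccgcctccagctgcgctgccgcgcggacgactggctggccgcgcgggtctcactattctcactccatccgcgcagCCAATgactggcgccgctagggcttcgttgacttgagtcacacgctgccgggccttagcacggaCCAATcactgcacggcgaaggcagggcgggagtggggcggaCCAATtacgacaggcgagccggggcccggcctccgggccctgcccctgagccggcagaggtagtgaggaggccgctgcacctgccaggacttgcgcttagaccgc
Cyp51: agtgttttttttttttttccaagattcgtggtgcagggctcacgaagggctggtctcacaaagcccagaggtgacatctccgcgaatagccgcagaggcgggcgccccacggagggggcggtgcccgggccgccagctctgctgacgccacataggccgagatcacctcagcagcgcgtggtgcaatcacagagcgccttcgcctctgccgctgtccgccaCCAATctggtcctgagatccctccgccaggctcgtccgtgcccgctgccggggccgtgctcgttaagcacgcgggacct
Insig1: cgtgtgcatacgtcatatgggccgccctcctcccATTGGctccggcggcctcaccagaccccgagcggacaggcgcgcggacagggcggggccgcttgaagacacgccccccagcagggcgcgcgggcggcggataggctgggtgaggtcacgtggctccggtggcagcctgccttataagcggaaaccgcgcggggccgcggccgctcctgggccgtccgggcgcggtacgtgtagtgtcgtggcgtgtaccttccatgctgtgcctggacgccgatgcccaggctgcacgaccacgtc
Acly: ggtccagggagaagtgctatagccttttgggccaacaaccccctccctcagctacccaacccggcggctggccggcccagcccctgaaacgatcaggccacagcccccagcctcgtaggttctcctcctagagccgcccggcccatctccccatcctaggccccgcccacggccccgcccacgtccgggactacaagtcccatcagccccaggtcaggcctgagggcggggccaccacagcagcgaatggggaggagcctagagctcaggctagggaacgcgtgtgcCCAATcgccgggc
Hmgcs1, whose product condenses acetyl-CoA units at the head of the mevalonate pathway, held 1 sterol regulatory element core and 4 NF-Y boxes. Msmo1 held 3 NF-Y boxes, and Cyp51, Insig1 and Acly held 1 each.

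Over the 25 genes with a promoter window, CCAAT was found in 20, or 80.0%, against 41.1% of the 27025 genes with a window outside chromosome 18. It was present in 14 of 15 sterol enzymes, in 4 of 5 genes of sensing and transport and in 2 of 5 genes of the fatty acid arm, Acly and Fasn. The Sp1 box GGGCGG was found in 21 of the 25, or 84.0%, against 38.2% of all genes. The E-box CACGTG was found in 5, or 20%, against 8.09%, and the strict sterol element core in 1, or 4.0%, against 1.44%. Both strands were searched, CCAAT and the core may overlap other motifs, and a match describes letters in a window and not bound protein.

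In control ESCs the highest levels per length of annotated exon belonged to genes of the fatty acid arm. Acly, which makes cytosolic acetyl-CoA from citrate, had 110.0 ± 0.740 CPM per kb of exon (SD, n = 2), and Scd2, a stearoyl-CoA desaturase, had 109 ± 2.34. These 2 did not differ beyond their spread. Fasn, the fatty acid synthase, followed with 56.5 ± 1.28 CPM per kb, and Hmgcs1 was the highest of the sterol enzymes with 49.3 ± 0.695. Srebf2 had 43.1 ± 0.784 and Insig1 41.1 ± 2.37 CPM per kb, which did not differ beyond their spread, while Srebf1 had 17.3 ± 0.541. Scd1, the desaturase paralog encoded near Scd2, had 20.6 ± 0.180 CPM per kb. The lowest levels were those of Tm7sf2, a sterol reductase, with 3.71 ± 0.269, and Hsd17b7, a 3-ketosteroid reductase, with 2.61 ± 0.296 CPM per kb.

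The summed level of the sterol enzymes was lower after each depletion than in control. It was 1175 to 1219 CPM in control, 917 to 951 after Hira, 779 to 830 after Ubn1 and 680 to 694 after Ubn2 depletion, and the ranges of the 4 groups did not overlap. The median log2 fold change of the 18 enzymes was -0.34 after Hira, -0.52 after Ubn1 and -0.74 after Ubn2 depletion, while the medians over all genes tested were 0.01, -0.00 and -0.00. These 3 comparisons share the same 2 control libraries, so a fall in one is not independent of a fall in another. In bulk RNA, fewer cells with a transcript and less of it per cell cannot be told apart. The summed level of the mesoderm and muscle markers given above was highest in the same Ubn2 libraries in which that of the sterol enzymes was lowest. Not every marker was raised there, and a link between the 2 sums was not tested.

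**Figure D1:**
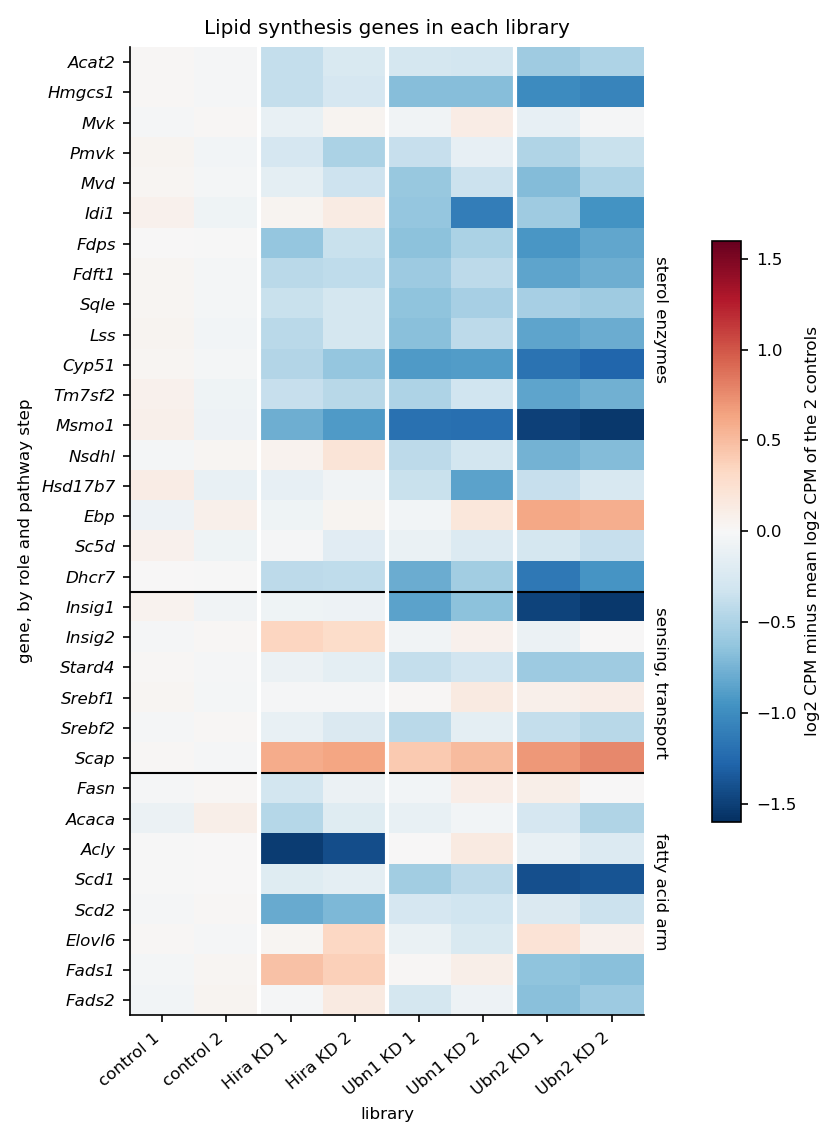
Each row is a gene, ordered by role and pathway step, and each column a library; colour is log2 CPM minus the mean log2 CPM of the 2 control libraries, blue for lower and red for higher. Most sterol enzyme rows deepen from Hira to Ubn1 to Ubn2 depletion, Ebp and Scap stand out in red after Ubn2 depletion, and Acly is dark in the 2 Hira-depleted libraries.

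A gene was called changed at an adjusted p under 0.05 with a fold change over 1.5, using the quasi-likelihood test of edgeR and Benjamini-Hochberg adjusted p-values over all genes tested. After Hira depletion 1 of the 18 sterol enzymes was called, lower, where 5.4% of all 19035 genes tested were called lower and 10.8% higher. With adjusted p alone, 12 of the 18 passed, all lower, where 34.9% of all genes passed, 17.3% lower and 17.6% higher, so most of these differences were smaller than the fold limit. After Ubn1 depletion 7 of 18 were called, all lower, where 1.56% of 18373 genes were called lower and 1.53% higher. Without the fold limit the 7 became 11, all lower, where 7.76% of all genes passed, 3.62% lower and 4.14% higher. After Ubn2 depletion 11 of 18 were called lower and 1 higher, against 8.75% and 9.59% of 18219 genes. By adjusted p alone 15 were lower and 1 higher, where 39.1% of all genes passed, 19.1% lower and 20% higher. The libraries of the 2 groups did not overlap for 13 of 18 enzymes after Hira, 16 after Ubn1 and 17 after Ubn2 depletion, beside 67%, 51.3% and 69.6% of all genes tested. Both controls lay above all 6 depleted libraries for 12 of the 18 enzymes, against 10.8% of 19264 genes.

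The mevalonate branch of the pathway turns acetyl-CoA into isoprenoid units. Acat2, a cytosolic thiolase that starts it, had 76.2 and 74.0 CPM in control, 57.9 and 63.2 after Hira, 61.6 and 61.4 after Ubn1, and 50.4 and 53.3 after Ubn2 depletion. All 6 depleted libraries were below both controls, but none of the 3 differences passed the fold limit, with log2 fold changes of -0.33, -0.29 and -0.53. Of its exonic words of 50 bases, 39.1% occur also in another gene, most in Acat3, so reads may be split or lost between them.

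Hmgcs1, the synthase that follows, had 229 and 224 CPM in control, 174 and 189 after Hira, 142 and 142 after Ubn1, and 113 and 109 after Ubn2 depletion. The 4 groups were ordered without overlap, with Ubn2 depletion lowest. Hmgcs1 fell to 62.4% of control after Ubn1 depletion (log2 fold change -0.68 ± 0.09 SE, adjusted p = 7.21e-06) and to 48.9% after Ubn2 depletion (-1.03 ± 0.07, adjusted p = 2.63e-10). After Hira depletion it stood at 79.1% (-0.34 ± 0.07, adjusted p = 0.0014), short of the fold limit. An antisense gene, Gm48342, overlaps 557 bases of its exons, and without a stated strand setting reads from it cannot be told apart.

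The next 3 enzymes, which phosphorylate and decarboxylate mevalonate, followed, and 1 of them was called. Mvk, mevalonate kinase, lay between 23.0 and 27.5 CPM in all 8 libraries, and its groups overlapped in every comparison with control. Pmvk, phosphomevalonate kinase, was not called, at log2 fold changes of -0.39, -0.25 and -0.42 in the order Hira, Ubn1 and Ubn2. Mvd, the decarboxylase, had 48.2 and 45.9 CPM in control and 29.1 and 33.3 after Ubn2 depletion, where it fell to 66.3% (log2 fold change -0.59 ± 0.10, adjusted p = 5.98e-05). That call lay at the fold limit and was lost without control replicate 1 (-0.57) or without Ubn2 replicate 1 (-0.50).

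Idi1, the isomerase that makes dimethylallyl diphosphate, separated Hira from the Ubn depletions. It had 28.5 and 26.0 CPM in control, 28.1 and 29.8 after Hira, 17.8 and 12.6 after Ubn1, and 18.3 and 14.0 after Ubn2 depletion. The Hira libraries overlapped the controls (log2 fold change 0.07 ± 0.11), and all 4 Ubn libraries lay below both groups. Idi1 fell by 0.85 on the log2 scale after Ubn1 depletion (SE 0.14, adjusted p = 0.000166) and by 0.75 after Ubn2 depletion (SE 0.13, adjusted p = 0.000102). The last value became -0.57 without Ubn2 replicate 2, inside the fold limit. Of its exonic words, 17.7% occur also elsewhere, most in Gm13502.

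The enzymes that join isoprenoid units into squalene were called after Ubn2 depletion. Fdps, farnesyl diphosphate synthase, had 114 and 113 CPM in control, 74.0 and 88.5 after Hira, 72.3 and 79.8 after Ubn1, and 59.4 and 63.8 after Ubn2 depletion. All 6 depleted libraries were below the controls, and Fdps was called after Ubn2 depletion (log2 fold change -0.88 ± 0.07, adjusted p = 8.04e-09). Its exons share 1124 bases with Gm43738 on the same strand, which makes its counts uncertain. Fdft1, squalene synthase, fell to 56.8% of control after Ubn2 depletion (-0.82 ± 0.07, adjusted p = 1.39e-08), with log2 fold changes of -0.44 after Hira and -0.50 after Ubn1 depletion that were not called. Its exons overlap those of Ctsb on the other strand over 774 bases.

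Sqle encodes squalene epoxidase, which acts next. It had 66.8 and 63.7 CPM in control, 51.0 and 53.6 after Hira, 41.7 and 45.0 after Ubn1, and 45.0 and 44.1 after Ubn2 depletion. The Ubn1 and Ubn2 libraries overlapped, and among the comparisons with control Sqle was called after Ubn1 depletion (log2 fold change -0.59 ± 0.10, adjusted p = 0.000241), beside -0.55 ± 0.08 after Ubn2 depletion. The 2 values lie on either side of the fold limit and their direct difference was 0.04 ± 0.10. The Ubn1 call was lost without control replicate 1 (-0.55) or without Ubn1 replicate 1 (-0.55). Lss, which closes the sterol rings, had 85.0 and 79.6 CPM in control and 45.8 and 47.3 after Ubn2 depletion, where it was called (-0.82 ± 0.08, adjusted p = 7.79e-08).

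Among the 18 sterol enzymes the lowest fitted values after each depletion were those of Msmo1, followed in each by Cyp51, both of which act in the removal of methyl groups from lanosterol. Cyp51, the 14-demethylase, had 73.3 and 70.0 CPM in control, 51.8 and 46.8 after Hira, 38.2 and 38.6 after Ubn1, and 31.7 and 29.7 after Ubn2 depletion. The 4 groups did not overlap. Cyp51 fell to 53.5% after Ubn1 depletion (log2 fold change -0.90 ± 0.10, adjusted p = 4.02e-07) and to 42.9% after Ubn2 depletion (-1.22 ± 0.09, adjusted p = 8.98e-10). At -0.55 ± 0.09 after Hira depletion it was short of the fold limit, which it passed without control replicate 2 (-0.59) or without Hira replicate 1 (-0.63).

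Msmo1, the 4-methyl oxidase, was called after all 3 depletions, and was the only one of the 32 genes of which this was so. It had 109 and 97.6 CPM in control, 59.9 and 55.0 after Hira, 45.2 and 44.5 after Ubn1, and 36.5 and 35.5 after Ubn2 depletion. The groups were ordered without overlap, at 55.1%, 43.4% and 34.9% of control. Msmo1 fell by 0.86 on the log2 scale after Hira (SE 0.08, adjusted p = 1.85e-07), by 1.20 after Ubn1 (SE 0.10, adjusted p = 9.64e-10) and by 1.52 after Ubn2 depletion (SE 0.08, adjusted p = 1.6e-11).

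The other enzymes around this step were less uniform. Tm7sf2 fell to 57.3% of control after Ubn2 depletion (log2 fold change -0.80 ± 0.14, adjusted p = 0.000147), and 532 bases of its exons lie in Vps51 on the same strand. Nsdhl, the sterol dehydrogenase that works after Msmo1, had 30.5 and 31.7 CPM in control, 32.2 and 35.9 after Hira, 23.2 and 25.3 after Ubn1, and 18.4 and 19.1 after Ubn2 depletion. The Hira libraries were the highest and the Ubn2 libraries the lowest, and Nsdhl was called lower after Ubn2 depletion (-0.73 ± 0.11, adjusted p = 2.03e-05). Hsd17b7 was called after Ubn1 depletion (-0.59 ± 0.18, adjusted p = 0.0337), with libraries of 10.4 and 7.30 CPM against 14.4 and 12.2 in control. That call was lost with DESeq2 (adjusted p = 0.108), without control replicate 1 (-0.47) and without Ubn1 replicate 2 (-0.35).

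Ebp, the sterol isomerase, went the other way. It had 19.1 and 21.5 CPM in control, 19.3 and 20.9 after Hira, 19.7 and 23.0 after Ubn1, and 31.0 and 30.2 after Ubn2 depletion. The first 3 groups overlapped and both Ubn2 libraries were above them (log2 fold change 0.59 ± 0.11 from control, adjusted p = 0.000253). This rise lay at the fold limit and missed it with no filter on low counts (0.57), without control replicate 1 (0.50) and without Ubn2 replicate 1 (0.57). Sc5d, the sterol desaturase, was called in no comparison, with log2 fold changes of -0.11, -0.17 and -0.32.

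Dhcr7, the reductase of the last step to cholesterol, had 88.6 and 87.8 CPM in control, 65.9 and 66.6 after Hira, 50.8 and 60.0 after Ubn1, and 39.8 and 45.8 after Ubn2 depletion. The groups were again ordered without overlap. Dhcr7 fell to 62.7% after Ubn1 depletion (log2 fold change -0.67 ± 0.10, adjusted p = 3.49e-05) and to 48.4% after Ubn2 depletion (-1.05 ± 0.08, adjusted p = 4.88e-09), and stood at 74.2% after Hira depletion (-0.43 ± 0.08, adjusted p = 0.000223). The Ubn1 call was lost without Ubn1 replicate 1 (-0.57).

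**Figure D2:**
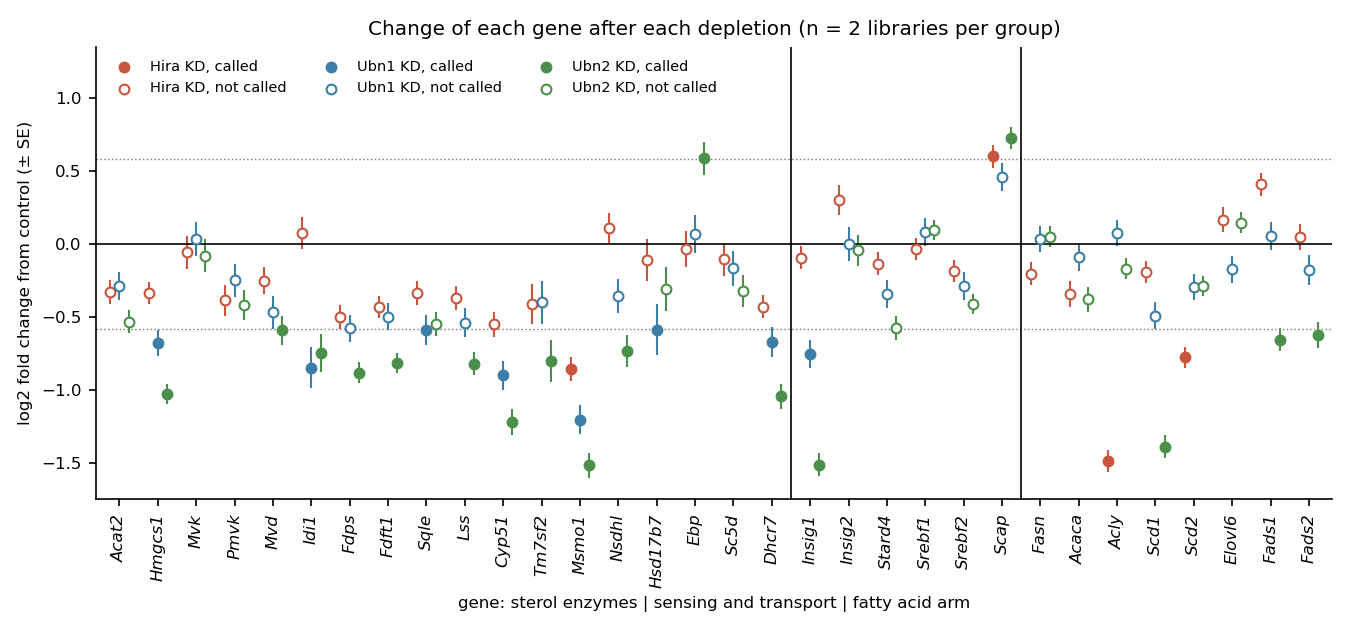
Points are fitted log2 fold changes from control with standard errors for each gene (x axis, by role) after Hira, Ubn1 and Ubn2 depletion, filled where called; dotted lines mark a fold of 1.5 either way. Most sterol enzymes lie below 0 with Ubn2 lowest, while Acly and Scd2 are called after Hira depletion and Scd1, Fads1 and Fads2 after Ubn2 depletion.

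Among the 6 genes of sensing and transport, Insig1 had the largest change after Ubn1 and after Ubn2 depletion, and Scap after Hira depletion. INSIG1 holds the SREBP escort SCAP in the endoplasmic reticulum. Insig1 had 132 and 122 CPM in control, 121 and 119.9 after Hira, 70.2 and 80.7 after Ubn1, and 45.3 and 43.6 after Ubn2 depletion. The Hira libraries were just below the controls, the Ubn1 libraries were lower and the Ubn2 libraries lowest. Insig1 fell to 59.3% of control after Ubn1 depletion (log2 fold change -0.75 ± 0.10, adjusted p = 3.78e-06) and to 35.0% after Ubn2 depletion (-1.51 ± 0.08, adjusted p = 5.42e-12). After Hira depletion it was at 93.7% and was not called (-0.09 ± 0.08, adjusted p = 0.368).

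Scap was called higher after 2 of the depletions. It had 58.4 and 56.9 CPM in control, 87.3 and 89.5 after Hira, 76.9 and 81.9 after Ubn1, and 92.9 and 97.8 after Ubn2 depletion. All 6 depleted libraries were above both controls, which was so for 11.6% of 19264 genes. Scap rose to 152% of control after Hira depletion (log2 fold change 0.60 ± 0.08, adjusted p = 7.07e-06) and to 165% after Ubn2 depletion (0.73 ± 0.08, adjusted p = 1.77e-07), and stood at 138% after Ubn1 depletion (0.46 ± 0.10, adjusted p = 0.00236). The Hira call was lost without control replicate 2 (0.58) or without Hira replicate 2 (0.58). An annotation on the other strand, 5830462I19Rik, overlaps 985 bases of its exons.

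The transcripts of the SREBPs themselves were called in no comparison with control. Srebf1 lay between 95.6 and 108 CPM over the 8 libraries, at log2 fold changes of -0.03 ± 0.08 with Hira, 0.08 ± 0.09 with Ubn1 and 0.09 ± 0.07 with Ubn2 reduced. Srebf2 had 306 and 314 CPM in control, 286 and 264 after Hira, 230.1 and 277 after Ubn1, and 239 and 227 after Ubn2 depletion. All 6 depleted libraries of Srebf2 were below both controls, with log2 fold changes of -0.19, -0.29 and -0.41, the last with an adjusted p of 7.43e-05 and inside the fold limit. These values are RNA levels and do not measure the cleaved SREBP proteins.

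Insig2, the INSIG form that is not known as a strong SREBP target, had 27.1 and 27.8 CPM in control and 34.7 and 33.6 after Hira depletion (log2 fold change 0.30 ± 0.10, adjusted p = 0.0282, not called). After Ubn1 and Ubn2 depletion its libraries overlapped the controls. Stard4, a carrier of cholesterol between membranes, stepped down without overlap from 70.3 and 69.0 CPM in control to 65.5 and 62.7 after Hira, 53.4 and 56.5 after Ubn1, and 46.7 and 46.8 after Ubn2 depletion. Its log2 fold change after Ubn2 depletion, -0.58 ± 0.08 (adjusted p = 9.13e-06), was just inside the fold limit and passed it with no filter on low counts (-0.60) and without control replicate 2 (-0.59).

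The fatty acid arm did not move as a block. Its summed level was 2289 to 2346 CPM in control, 1567 to 1736 after Hira, 2144 to 2248 after Ubn1 and 1983 to 2128 after Ubn2 depletion. After Hira depletion 2 of the 8 genes were called and after Ubn2 depletion 3, all lower, beside 5.4% and 8.75% of all genes called lower. After Ubn1 depletion edgeR called 0, as did DESeq2, where edgeR called 1.56% of all genes lower and 1.53% higher. At an adjusted p under 0.05 alone 2 were lower, where 3.62% of all genes were lower and 4.14% higher. The same number were lower at an unadjusted p under 0.05, for which the share of all genes was not counted. The median log2 fold changes of the 8 genes were -0.20, -0.13 and -0.33. With the fold limit, none of the 2 genes called after Hira depletion was among the 3 called after Ubn2 depletion. By adjusted p alone 1 was higher and 4 lower after Hira depletion, beside 17.6% and 17.3% of all genes. After Ubn2 depletion 0 were higher and 5 lower, beside 20% and 19.1%. Scd1 and Scd2 lay below both controls after either depletion, while Fads1 was higher after Hira and lower after Ubn2 depletion. The calls therefore do not show separate sets of genes.

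Acly had the largest change of the arm after Hira depletion. It had 578 and 583 CPM in control, 203 and 217 after Hira, 585 and 639 after Ubn1, and 534 and 499 after Ubn2 depletion. The Hira libraries stood far below the other 6. Acly fell to 35.7% of control after Hira depletion (log2 fold change -1.49 ± 0.08, adjusted p = 2.41e-11), against 105% after Ubn1 (0.07 ± 0.09) and 88.9% after Ubn2 depletion (-0.17 ± 0.07), neither of which was called.

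The paralogs Scd1 and Scd2 make monounsaturated fatty acids and lie in one stretch of chromosome 19, with Scd4 between them, Scd2 at chr19:44293674-44306864 and Scd1 at chr19:44394455-44407879 of GRCm38. Scd2 had 588 and 607 CPM in control, 343 and 362 after Hira, 498 and 477 after Ubn1, and 507 and 472 after Ubn2 depletion. All 6 depleted libraries were below the controls and the Hira libraries lowest, with a call after Hira depletion (log2 fold change -0.78 ± 0.07, adjusted p = 1.2e-07).
Scd1 had 100.3 and 102 CPM in control, 87.9 and 90.8 after Hira, 68.4 and 75.3 after Ubn1, and 38.2 and 38.8 after Ubn2 depletion. For this gene the Ubn2 libraries were the lowest, and Scd1 fell to 38.1% of control there (-1.39 ± 0.08, adjusted p = 2.27e-11). After Ubn1 depletion it stood at 71.1% (-0.49 ± 0.09, adjusted p = 0.000931), inside the fold limit. Of the exonic words of Scd1, 4.56% occur also in another gene, most in Scd3.

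Fads1 and Fads2, the desaturases of polyunsaturated fatty acids, lie near each other on the same chromosome, at chr19:10182888-10196877 on the plus strand and chr19:10062765-10101746 on the minus strand. Fads1 had 75.8 and 79.4 CPM in control, 107 and 101 after Hira, 78.5 and 82.6 after Ubn1, and 49.7 and 48.8 after Ubn2 depletion. The Hira libraries were the highest and the Ubn2 libraries the lowest, at log2 fold changes of 0.41 ± 0.08 (adjusted p = 0.000351, not called) and -0.66 ± 0.08 (adjusted p = 1.32e-06). Fads2 had 56.1 and 59.6 CPM in control and 36.3 and 38.8 after Ubn2 depletion, where it was called (-0.63 ± 0.09, adjusted p = 1.01e-05). Its Hira libraries overlapped the controls, and the Ubn2 call was lost without control replicate 2 (-0.58) or without Ubn2 replicate 1 (-0.58).

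The enzymes that make palmitate, Acaca and Fasn, and the elongase Elovl6 were called in no comparison. Fasn had 608 and 628 CPM in control, 506 and 580.4 after Hira, 602 and 666 after Ubn1, and 662 and 619 after Ubn2 depletion. Its Hira libraries lay below both controls and its other groups overlapped them (log2 fold change -0.20 ± 0.08, adjusted p = 0.0475). Acaca, acetyl-CoA carboxylase, stood at -0.35, -0.09 and -0.38 on the log2 scale after the depletions in the same order, and 30.4% of its exonic words occur also elsewhere, most in Gm5182. Elovl6 had log2 fold changes of 0.17, -0.17 and 0.14.

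**Figure D3:**
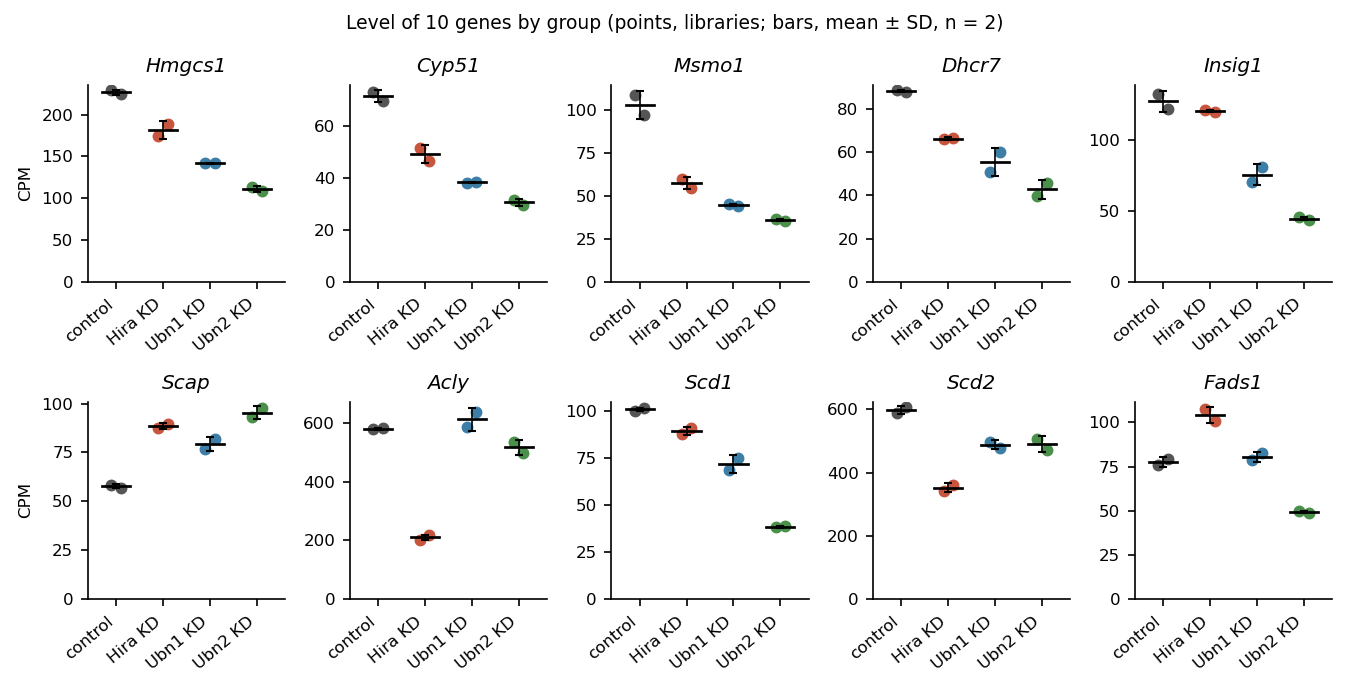
Level in CPM (y axes from 0) of 10 genes in each library, with the mean and SD of the 2 libraries per group. Hmgcs1, Cyp51, Msmo1 and Dhcr7 step down from control to Ubn2 depletion, Insig1 after Hira depletion stays near control at 121 and 119.9 CPM, Acly and Scd2 are lowest after Hira depletion, and Scd1 and Fads1 are lowest after Ubn2 depletion.

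Over all 32 genes, 1 was called higher and 3 lower after Hira depletion, 8 were called after Ubn1 depletion, all lower, and 2 were called higher and 15 lower after Ubn2 depletion. In either direction these are 4, 8 and 17 genes, beside 16.2%, 3.09% and 18.3% of all genes tested. Of the 32, 11 were called after no depletion, 14 after 1, 6 after 2 and 1 after all 3. The share of all genes was not counted for this overlap. The comparisons also share their control libraries, so these counts cannot be weighed as a trait of the 32. The 6 were Hmgcs1, Idi1, Cyp51, Dhcr7 and Insig1, called lower after Ubn1 and Ubn2 depletion, and Scap, called higher after Hira and Ubn2 depletion. The group mean of Ubn2 depletion was the lowest of the 4 for 22 of the 32 genes, and for 16 of them both Ubn2 libraries were below all 6 others, which was so for 14.1% of 19264 genes.

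Whether the depletions differ from each other was tested directly, without the controls. Hira against Ubn2 depletion gave 10 of the 32 genes higher with Hira depletion and 2 lower, where 12% and 5.61% of 18563 genes were called and 17.6% in all. With adjusted p alone 20 were higher and 4 lower, where 18.6% and 17.2% of all genes were and 35.8% passed. The 10 comprised 6 sterol enzymes, Insig1 and 3 genes of the fatty acid arm. The sterol enzymes were Nsdhl (log2 fold difference 0.86 ± 0.11, adjusted p = 3.82e-05), Idi1 (0.84 ± 0.13, adjusted p = 0.000196), Hmgcs1 (0.72 ± 0.07, adjusted p = 6.44e-06), Cyp51 (0.69 ± 0.10, adjusted p = 7.83e-05), Msmo1 (0.68 ± 0.09, adjusted p = 4.51e-05) and Dhcr7 (0.64 ± 0.09, adjusted p = 8.08e-05). The 2 that were lower with Hira depletion were Ebp (-0.60 ± 0.11, adjusted p = 0.0006) and Acly (-1.29 ± 0.08, adjusted p = 6.55e-08). The median difference of the 18 sterol enzymes was 0.40, while that of all genes tested was 0.01, and the Hira libraries lay wholly above the Ubn2 libraries for 15 of the 18 and wholly below for 1, beside 68.5% of all genes that did not overlap.

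Insig1 was the gene that differed most between Hira and Ubn2 depletion among those higher with Hira, at 2.72 times the Ubn2 level (log2 fold difference 1.44 ± 0.08, adjusted p = 1.26e-08). Scd1 was at 2.33 times (1.22 ± 0.08, adjusted p = 9.43e-08), Fads1 at 2.12 times (1.09 ± 0.08, adjusted p = 2.27e-07) and Fads2 at 1.62 times the Ubn2 level (0.70 ± 0.09, adjusted p = 4.49e-05). For Scd2 the direct difference was -0.47 ± 0.08 (adjusted p = 0.000385) and did not pass the fold limit. The calls of Ebp and Dhcr7 were each lost when 1 library was left out, Ebp without Hira replicate 1 (-0.54) and Dhcr7 without Ubn2 replicate 1 (0.53).

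Hira against Ubn1 depletion gave 3 of the 32 genes, 2 higher and 1 lower, beside 12.7% of 18819 genes, 9.52% higher and 3.16% lower. Without the fold limit 11 were higher and 2 lower, where 14.2% and 10.2% of all genes were and 24.3% passed. Idi1 was higher with Hira depletion (log2 fold difference 0.94 ± 0.15, adjusted p = 2.97e-05), as was Insig1 (0.68 ± 0.10, adjusted p = 1.37e-05), and Acly was lower (-1.54 ± 0.11, adjusted p = 5.51e-11). The Insig1 call was lost without Ubn1 replicate 1 (0.56), where Hsd17b7 gained one (0.75). The median difference of the 18 sterol enzymes was 0.22, beside 0.02 over all genes, and the groups did not overlap for 9 of the 18, all with Hira above, where 61.5% of all genes did not overlap.

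Ubn2 against Ubn1 depletion also gave 3 genes, all lower with Ubn2 depletion, beside 4.09% of 18205 genes called in that direction, 4.61% in the other and 8.7% in all. They were Scd1 (log2 fold difference -0.90 ± 0.10, adjusted p = 8.09e-06), Insig1 (-0.76 ± 0.10, adjusted p = 5.05e-05) and Fads1 (-0.71 ± 0.09, adjusted p = 4.71e-05). Of the 18 sterol enzymes 0 were called by edgeR or DESeq2. At an unadjusted p under 0.05, 10 were lower and 1 higher, but the share of all genes was not counted there, so these counts cannot be weighed. At an adjusted p under 0.05 alone 7 were lower and 1, Ebp, higher with Ubn2 depletion, where 7.98% of all genes were lower, 8.6% higher and 16.6% passed. The median difference of the 18 was -0.27, beside 0.00 over all genes, and the groups did not overlap for 12 of them, 11 with Ubn2 below, where 58.3% of all genes did not overlap. Hmgcs1, for one, differed by -0.36 ± 0.08 (adjusted p = 0.00743) and Msmo1 by -0.32 ± 0.10 (adjusted p = 0.0368). The transcript of the targeted gene was reduced to a different degree in each knockdown, and its part in these differences was not tested.

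**Figure D4:**
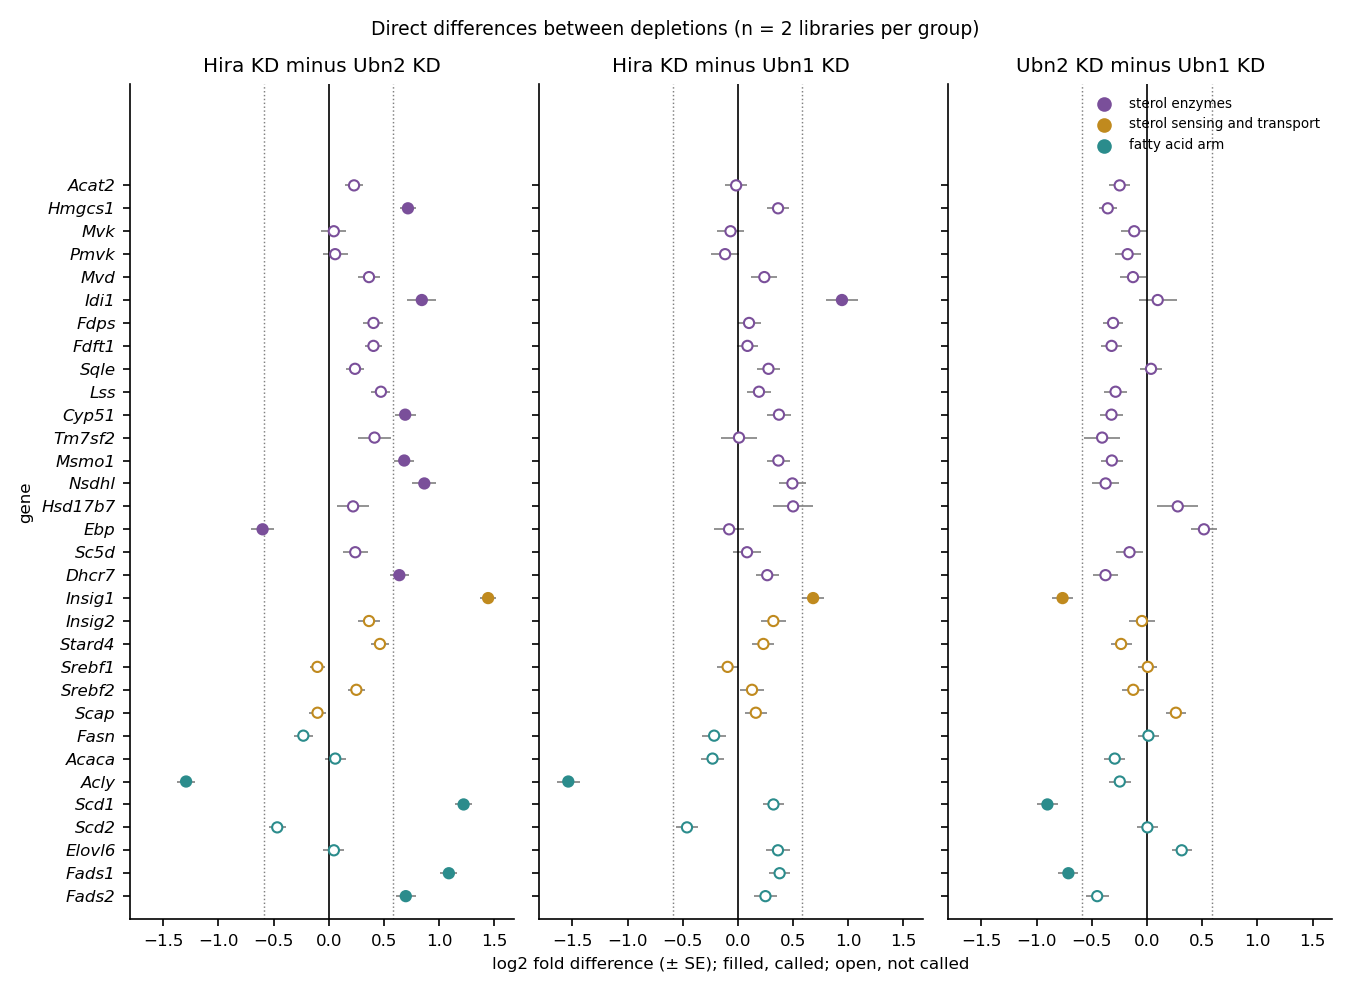
Points are log2 fold differences between 2 depletions with standard errors for each gene (y axis), coloured by role and filled where called; dotted lines mark a fold of 1.5 either way. Most sterol enzymes lie to the right of 0 in Hira minus Ubn2, Acly lies far to the left in both Hira panels at -1.29 and -1.54, and Insig1, Scd1 and Fads1 are the filled points of Ubn2 minus Ubn1.

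Genes around the pathway were counted from lists that were likewise drawn up with earlier results known. Of 9 genes of SREBP processing and INSIG turnover, Fbxw7, a ubiquitin ligase subunit that marks nuclear SREBP for degradation, rose after Hira (log2 fold change 0.77) and after Ubn2 depletion (0.67), and these were the only calls of that list in the 3 comparisons with control, beside 10.8% and 9.59% of all genes called higher, so that 1 of 9 is near the share of all genes. Of 15 genes of fatty acid supply and elongation, 2 were called in the comparisons with control, Acsl3 (-0.60), an acyl-CoA synthetase, and Mid1ip1 (-0.62), a regulator of acetyl-CoA carboxylase, both lower after Ubn2 depletion, where 8.75% of all genes were called lower. By adjusted p alone 4 genes of this list were higher and 4 lower after Hira depletion, beside 17.6% and 17.3% of all genes, and 1 was higher and 8 lower after Ubn2 depletion, beside 20% and 19.1%. Of 14 genes of the non-sterol isoprenoid branches, which use the same farnesyl units, 1 was called, Coq2 of ubiquinone synthesis, lower after Ubn2 depletion (-0.80), beside the 8.75% of all genes called lower there.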

How the data were processed

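RNA-seq libraries of E14 ESCs were compared in 4 groups of 2, as labelled. The authors trimmed reads with Trim Galore, aligned them to GRCm38 with STAR, counted them on genes with featureCounts and deposited the raw counts in 3 tables, 1 for each knockdown, with identical control columns. Versions, the strand setting and the handling of multi-mapping reads are not given in the sources used here. Every column belonged to a sample.

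Each of 6 comparisons was fitted with edgeR 4.0.16 in R 4.3.3 on its 4 libraries with TMM normalization, filterByExpr and quasi-likelihood tests, Benjamini-Hochberg adjusted over all genes tested, two-sided. A call needed an adjusted p under 0.05 and a fold over 1.5, as in the methods of the study. Standard errors were obtained as the fold change (log2) over the root of F. CPM values use TMM-scaled library sizes over all 8 libraries, and SDs are over 2 libraries. Exact permutation of 2 against 2 libraries cannot go below p = 0.333, so no single-gene permutation test was run. Depth, 19710040 to 32706053 counts, limits the precision of low genes.

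All 32 genes may be named; of each other list, up to 3 called genes with the smallest adjusted p per comparison are named. The genes and lists were chosen with earlier results of these data known. Positions and exon lengths are from GENCODE M21 (GRCm38), in which all 32 symbols matched, and promoters from RefSeq. Shared words are exonic stretches of 50 bases found also in transcripts of another gene. As alternatives, the Wald test of DESeq2 1.42.0, its size factors in edgeR, no filter, a minimum of 10 counts in each library, a joint fit of all 8 libraries, a replicate block, calls by adjusted p alone and the omission of each library were tried. Figures were drawn with matplotlib 3.10.9 in Python 3.11.15. A result on 1 gene of fatty acid oxidation is not reported here.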

Additional observations from a re-analysis of the deposited data

Results flagged for a closer look

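The values below are listed because a direct test between 2 depletions called a difference in a lipid gene. Of the 32 genes, 12 were called for Hira against Ubn2, beside 17.6% of all genes. For Hira against Ubn1 there were 3, beside 12.7%, and for Ubn2 against Ubn1 also 3, beside 8.7%. The last 2 counts are near the share of all genes and set the list apart in no way. Between Hira and Ubn2 depletion, log2 fold differences were 0.72 for Hmgcs1, 0.84 for Idi1, 0.69 for Cyp51, 0.68 for Msmo1, 0.86 for Nsdhl, -0.60 for Ebp, 0.64 for Dhcr7, 1.44 for Insig1, -1.29 for Acly, 1.22 for Scd1, 1.09 for Fads1 and 0.70 for Fads2, positive where Hira depletion was higher. Between Hira and Ubn1 depletion they were 0.94 for Idi1, 0.68 for Insig1 and -1.54 for Acly. Between Ubn2 and Ubn1 depletion they were -0.76 for Insig1, -0.90 for Scd1 and -0.71 for Fads1, negative where Ubn2 depletion was lower. The 3 comparisons share libraries with each other, and the targeted transcripts were reduced to different degrees. Groups of 2 libraries are too small to test a single library as deviant.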

How the results depend on the processing

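The counts of genes called (4, 8 and 17 after Hira, Ubn1 and Ubn2 depletion, and 12, 3 and 3 for Hira against Ubn2, Hira against Ubn1 and Ubn2 against Ubn1) stayed within 1.5 times under all alternatives except adjusted p alone, which drops the fold limit. That gave 19 after Hira depletion (3 higher, 16 lower), 16 after Ubn1 depletion (1 higher, 15 lower), 24 for Hira against Ubn2 (20 higher, 4 lower), 13 for Hira against Ubn1 (11 higher, 2 lower) and 14 for Ubn2 against Ubn1 (2 higher, 12 lower), and 25 after Ubn2 depletion. Leaving out 1 library gave 4 to 5, 6 to 10, 14 to 18, 11 to 12, 3 to 3 and 3 to 4, in the same order of comparisons. The replicate block gave 4, 8, 17, 12, 3 and 3. Between groups, libraries with the same number deviated from the mean of their group with correlations of -0.0985 to 0.0978 over 19264 genes, so the numbers were not taken as pairs. No called gene changed sign. The 47 sign changes were among 19 genes called under neither setting, with log2 fold changes of at most 0.14 in size. Of the values of single genes, 32 crossed the limits of a call, 29 of them on leaving out a library, in 13 genes. With 2 libraries per group, genes near the fold limit could not be placed firmly, and changes in low genes such as Hsd17b7 were the least precise.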

Other observations

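Genes that remove or burn lipid were described from lists drawn up with earlier results known. Of 10 genes of the liver X receptor response, efflux and esterification, 9 passed the filter on low counts. Abca1, an exporter of cholesterol, rose after Hira depletion (log2 fold change 0.87), from 48.7 and 59.1 CPM in control to 90.5 and 109 CPM, and had 81.7 and 67.2 CPM after Ubn2 depletion. After Ubn2 depletion 4 of the 9 were called, all lower, where 8.75% of all genes were called lower and 9.59% higher. By adjusted p alone 5 were lower and 1 was higher, beside 19.1% and 20% of all genes. Of the 4 called, Soat1, which esterifies cholesterol, fell by 0.90 on the log2 scale, Mylip, a ubiquitin ligase, by 1.00 and Abcg1, another exporter, by 0.74.

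Among 15 genes of fatty acid oxidation, 2 are given here, and the list did not move as a whole. Its median log2 fold change was 0.01 after Hira and -0.14 after Ubn2 depletion, beside 0.01 and -0.00 over all genes. Of all genes, 10.8% were called higher and 5.4% lower after Hira depletion. Acadm, the medium-chain dehydrogenase, had 86.1 and 86.4 CPM in control and 43.6 and 42.1 after Hira depletion (log2 fold change -1.02), and stood at 77.8 and 78.3 CPM after Ubn2 depletion. Slc25a20, the mitochondrial carnitine carrier, was called higher after Hira (0.63) and after Ubn2 depletion (0.94). It was the only 1 of the 15 called after Ubn2 depletion, where 9.59% of all genes were called higher and 8.75% lower.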
